A study of Homo sapiens with 6 samples.

Results

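Of the 6 RNA sequencing libraries of the study, 2 were labelled H2030, and they were set against the other 4, which were labelled A549 and H1299. The pair was chosen by its cell-line label alone. It comprised 1 library with an empty vector and 1 with a malin vector, and A549 and H1299 contributed the same vectors, so each line had 2 libraries and no replicate of either vector. All 3 are human lines that the labels describe as lung cancer cells, obtained from ATCC, at passage 5. Malin, the product of NHLRC1, is an E3 ubiquitin ligase involved in glycogen metabolism. A549 and H1299 are non-small-cell lung carcinoma lines, and NCI-H2030 is a lung adenocarcinoma line. The value column of the malin library of the pair carried the name of a different line, HEK293T in its short form, as its header, whereas every label of that library reads H2030. The column of its empty-vector partner was headed H2030. The question was which genes separate the pair from the 2 lung lines, and how the pair reads on genes of the lung, of the developing kidney and of carcinoma cells.

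HEK293T is a human embryonic kidney line transformed with adenovirus DNA that also carries the large T antigen of SV40. Lung adenocarcinomas often keep the regulator NKX2-1 and surfactant genes, which alveolar cells use to lower surface tension, although cultured lines can lose them. The kidney forms from a cap of progenitor cells that express SIX2, SALL1 and EYA1 and exchange GDNF, WNT and BMP signals with the branching ureteric bud. Viral genes and reference profiles of H2030 or HEK293T were not analysed here, so the identity of the pair was compared only through human genes within these 6 libraries.

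The tables listed 19903 genes in FPKM, a fragment number divided by transcript length and by sequencing depth. Depth, estimated from the spacing of low values, was 8300000 to 10700000 fragments per library, at which 1 fragment on a transcript of 2000 bases is worth 0.047 to 0.06 FPKM. The 4 A549 and H1299 libraries had 11861 to 12039 genes at 1 FPKM or more and the pair had 13179 and 12992. NHLRC1 stood at 1.21 and 6.82 FPKM in A549 with the empty and the malin vector, at 2.85 and 119.2 FPKM in H1299, and at 0.18 and 3.69 FPKM in the pair. It was higher with the malin vector under each line label. A sum over 12 housekeeping genes was 10325.6 to 11061.9 FPKM in A549 and H1299 and 5951.9 and 6382.3 FPKM in the pair, GAPDH and ACTB included, and the part of this in the results was not tested.

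The 2 libraries of the pair resembled each other far more than either resembled another line. No coding gene stood at 5 FPKM or more in 1 of the pair and under 0.2 FPKM in the other. Between lines 233 to 257 genes did so, and within A549 and H1299 the counts were 1 and 0. Across genes, which are not independent, Pearson's r of log2(FPKM+1) was 0.975 in the pair, 0.996 in A549, 0.997 in H1299 and 0.758 to 0.818 between lines. The library headed with the kidney line's name and its partner were thus alike by both measures. By r, though not by the count of genes, they differed somewhat more from each other than the libraries of A549 or of H1299 did.

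Differences between the pair and the lung lines were widespread. A gene is called line-specific here when both values of the pair lay above, or both below, all 4 others, and its gap is the distance on log2(FPKM+1) from the nearer library of the pair to the nearest of the other 4. Over the 12184 protein-coding genes with a mean of at least 1 FPKM, 4575 were line-specific higher (37.5%) and 2037 lower (16.7%). The same rule found 2263 higher and 4077 lower for A549 and 2746 and 3296 for H1299. A gap of at least 1, or 2-fold on that scale, was met by 975 genes higher in the pair (8.0%) and 414 lower (3.4%), against 553 and 473 for A549 and 445 each way for H1299. Over all 19903 genes the line-specific counts were 7008 higher (35.2%) and 2341 lower (11.8%), with wide gaps in 1225 (6.15%) and 433 (2.18%).

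The linear model limma, with the mean of each line and Benjamini-Hochberg adjustment at 0.05, found 5554 genes higher in the pair than the average of A549 and H1299 (45.6%) and 2955 lower (24.3%). Of these, 3497 were also higher than each line separately and 1500 lower than each, while 962 genes were higher than 1 line and lower than the other. The test measures the spread between libraries of 1 line, which differ in vector, and describes these 3 lines rather than lung or kidney cells at large. The balance of the calls depended on scaling. The median log2 difference over all genes was 0.24 on the deposited scale, so that 65.3% of calls were higher. After median-of-ratios scaling that median was -0.07 and 44.9% of calls were higher, and after quantile normalization 0.06 and 53.6%. Group medians in the fit are therefore read against the all-gene median of 0.24.

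**Figure D1:**
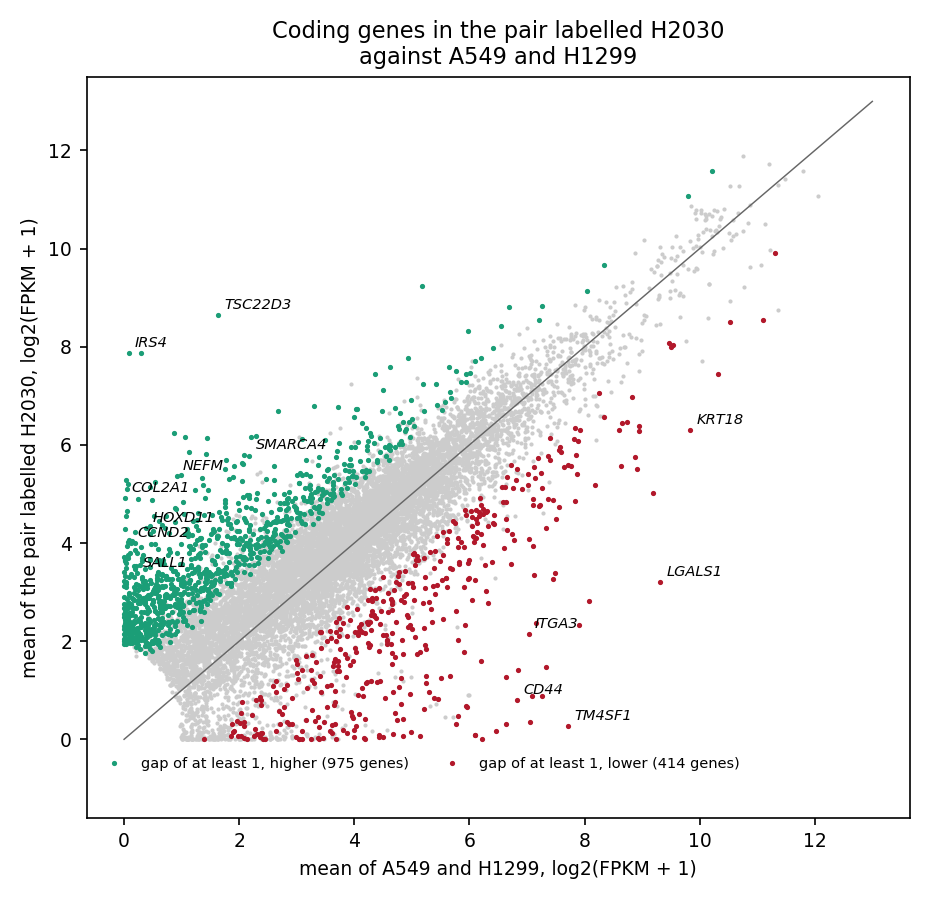
Each point is 1 of 12184 protein-coding genes, with its mean log2(FPKM+1) over the A549 and H1299 libraries on the x axis and over the pair labelled H2030 on the y axis. Green points are the 975 genes higher in the pair with a gap of at least 1, red points the 414 lower ones, and the line marks equal levels; IRS4 and TM4SF1 have the widest gaps.

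IRS4, an insulin receptor substrate first characterised in human embryonic kidney cells, had the widest gap. It stood at 0.05 and 0.03 FPKM in A549 with the empty and the malin vector, 0.03 and 0.11 in H1299, and 174.03 and 314.75 in the pair, a log2 difference of 7.80 (SE 0.23; limma, adjusted p = 3.58e-06). It was near 0 in all 4 lung libraries and abundant in both of the pair. PRDX2, a peroxiredoxin that reduces hydrogen peroxide, was at 0.92 and 0.20 FPKM in A549, at 0 in both H1299 libraries, and at 227.52 and 241.38 in the pair (log2 difference 7.58, SE 0.19; limma, adjusted p = 2.31e-06). TSC22D3, a glucocorticoid-induced leucine zipper protein, was at 6.59 and 7.45 FPKM in A549, 0.24 and 0.16 in H1299, and 515.11 and 308.51 in the pair. COL2A1, the cartilage collagen, did not exceed 0.02 FPKM in the lung lines and reached 27.19 and 31.15 in the pair. HAND1, a transcription factor of heart and extraembryonic development, did not exceed 0.06 FPKM there and was at 21.41 and 58.74 in the pair. These genes were picked by their gap, so the lack of overlap and the small p-values follow from the choice. The other genes with the widest upward gaps were SHISA2, PDPN, SLIT2, AMOT, HEY1, CXorf57, CALCB, LRRC61, SEPP1 and QPRT. PDPN, the membrane glycoprotein podoplanin, was at 23.51 and 21.35 FPKM in the pair and at most 0.04 elsewhere. SLIT2, a secreted guidance cue of axons and of the ureteric bud, was at 28.56 and 29.46 FPKM in the pair and at most 0.45 elsewhere.

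Downward, TM4SF1, a tetraspanin-like surface protein, had the widest gap. It was at 136.28 and 159.99 FPKM in A549, 292.28 and 297.01 in H1299, and 0.23 and 0.19 in the pair (log2 difference -7.44, SE 0.09; limma, adjusted p = 6.92e-07). CD44, the hyaluronan receptor, was at 110.61 and 138.03 FPKM in A549, 101.32 and 102 in H1299, and 0.96 and 0.55 in the pair (log2 difference -6.02, SE 0.13; limma, adjusted p = 1.7e-06). Both were abundant in each lung library and close to 0 in each of the pair. SPP1, which encodes osteopontin, the actin-binding tropomyosin TPM2, and MYOF, a membrane repair protein, followed the same pattern, with TPM2 at 6 and 6.05 FPKM against 243.51 to 287.8. The others were LGALS1, PPAP2C, AXL, C19orf33, PEG10, ITGA3, PLAU, and XAGE1B and XAGE1E, near-identical copies whose values were the same and cannot be separated.

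The start-site regions of the 2 widest-gap genes in each direction are shown because the groups differ there between near 0 and high levels, and their CpG content differs. Each stretch is the 150 bases before the RefSeq transcription start on GRCh38.p14, written along the gene's strand, with CpG dinucleotides in capitals. IRS4 lies at chrX:108736564-108736713 (minus strand), PRDX2 at chr19:12801801-12801950 (minus), TM4SF1 at chr3:149377650-149377799 (minus) and CD44 at chr11:35139021-35139170 (plus).
IRS4: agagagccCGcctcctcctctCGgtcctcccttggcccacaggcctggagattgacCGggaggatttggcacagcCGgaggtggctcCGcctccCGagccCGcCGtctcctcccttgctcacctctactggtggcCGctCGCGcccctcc
PRDX2: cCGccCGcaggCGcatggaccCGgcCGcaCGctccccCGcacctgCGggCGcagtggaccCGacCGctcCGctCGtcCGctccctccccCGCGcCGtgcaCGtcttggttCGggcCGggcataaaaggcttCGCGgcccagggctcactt
TM4SF1: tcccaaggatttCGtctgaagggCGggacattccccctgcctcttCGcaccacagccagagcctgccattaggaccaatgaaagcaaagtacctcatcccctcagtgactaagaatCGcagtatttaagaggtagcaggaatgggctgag
CD44: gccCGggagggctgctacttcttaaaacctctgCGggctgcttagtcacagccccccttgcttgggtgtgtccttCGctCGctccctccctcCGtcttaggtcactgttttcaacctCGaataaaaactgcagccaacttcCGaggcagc
These stretches hold 11, 22, 4 and 7 CpG. In the full 300 bases around each start, from 250 before to 50 after, there were 23 in IRS4, 46 in PRDX2, 4 in TM4SF1 and 18 in CD44. Of the 12184 genes, 10056 had such a RefSeq entry, with a median of 27 CpG, and 9.13% held fewer than 10. The share with fewer than 10 was 13.8% among the 767 wide-gap higher genes with an entry and 16% among the 337 wide-gap lower ones. Methylation was not measured.

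Between the 2 vectors of the pair the wide-gap genes had a median log2 difference, taken without sign, of 0.23 over the 975 higher genes and 0.18 over the 414 lower ones. Of these genes 23 and 7 differed 2-fold or more within the pair, 21 and 5 of them lower with malin. CALCB, a calcitonin-related peptide, was at 73.3 FPKM with the empty vector and 19.5 with malin, and HAND1 moved the other way. Both stayed above all 4 lung libraries.

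Just inside the upper limit, with no test, were abundant genes such as RPSA, which encodes a ribosomal protein, at 1192.19 to 1263.75 FPKM in the lung lines and 1350.84 and 1290.04 in the pair. LDHB, a lactate dehydrogenase subunit, lay just outside, at 1107.37 to 1194.47 against 1170.84 and 1509.09. On the lower side the glycolytic enzyme ENO1 was just inside, at 1384.53 to 1531.46 FPKM against 1194.52 and 1344.69. RPS21 was just outside, at 711.15 to 834.9 FPKM against 728.11 and 699.93. Line-specific genes thus include small differences.

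Surfactant genes, which mark alveolar cells, were at or near 0 in all 6 libraries and did not separate the pair from A549 or H1299. SFTPB, the surfactant protein B gene, was at 0.11 FPKM in 1 H1299 library and in 1 of the pair and at 0 in the other 4. SFTPC was detected only in 1 A549 library, at 0.11 FPKM, and SFTPD did not exceed 0.16 FPKM anywhere. NAPSA, the aspartic protease that processes surfactant protein B, was at 1.36 and 0.46 FPKM in the pair and at most 0.51 elsewhere. The groups overlapped for all 4 genes.

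The transcription factors of the lung list differed in both directions. NKX2-1 was listed at 0 in both A549 libraries, at 0.77 and 0.6 FPKM in H1299, and at 1.85 and 3.78 in the pair (log2 difference 1.51, SE 0.21; limma, adjusted p = 0.0009). GATA6, a zinc-finger factor of endoderm and heart, was at 0.73 and 0.72 FPKM in A549, 7.23 and 7.5 in H1299, and 22.4 and 14.86 in the pair. The pair was above all 4 others for both. FOXA2, a pioneer factor of endoderm, was at 10.2 and 10.22 FPKM in A549, 0 and 0.04 in H1299, and 0.31 and 0.36 in the pair, so the pair lay between the lines. ELF3, an epithelial ETS factor, was at 62.56 and 35.32 FPKM in A549 and at most 0.04 in the other 4. FOXA1 was at 4.44 and 5.53 FPKM in the pair, below A549 at 7.7 and 6.11 and above H1299 at 0.87 and 1.15.

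Of the 34 lung genes listed, 27 were in the tables, 9 were line-specific higher (33.3%) and 0 lower, beside 35.2% and 11.8% over all 19903 genes, and 12 stayed under 1 FPKM in every library. In the fit of 13 of them, limma called 8 higher and 3 lower, beside 45.6% and 24.3% of all fitted genes. Their median log2 difference was 0.59 beside 0.24 over all genes. The 3 lower were FOXA2, ELF3 and CEACAM6, each high only in A549. CEACAM6 lost its call when either H1299 library was left out. LPCAT1, which makes surfactant phospholipid but acts in many cells, was among the higher, at 35.04 and 43.45 FPKM against 16.28 to 24.39. AGER was also among them, at 2.06 and 2.03 FPKM against 0.9 to 1.48. After quantile normalization the calls were 4 higher and 4 lower.

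**Figure D2:**
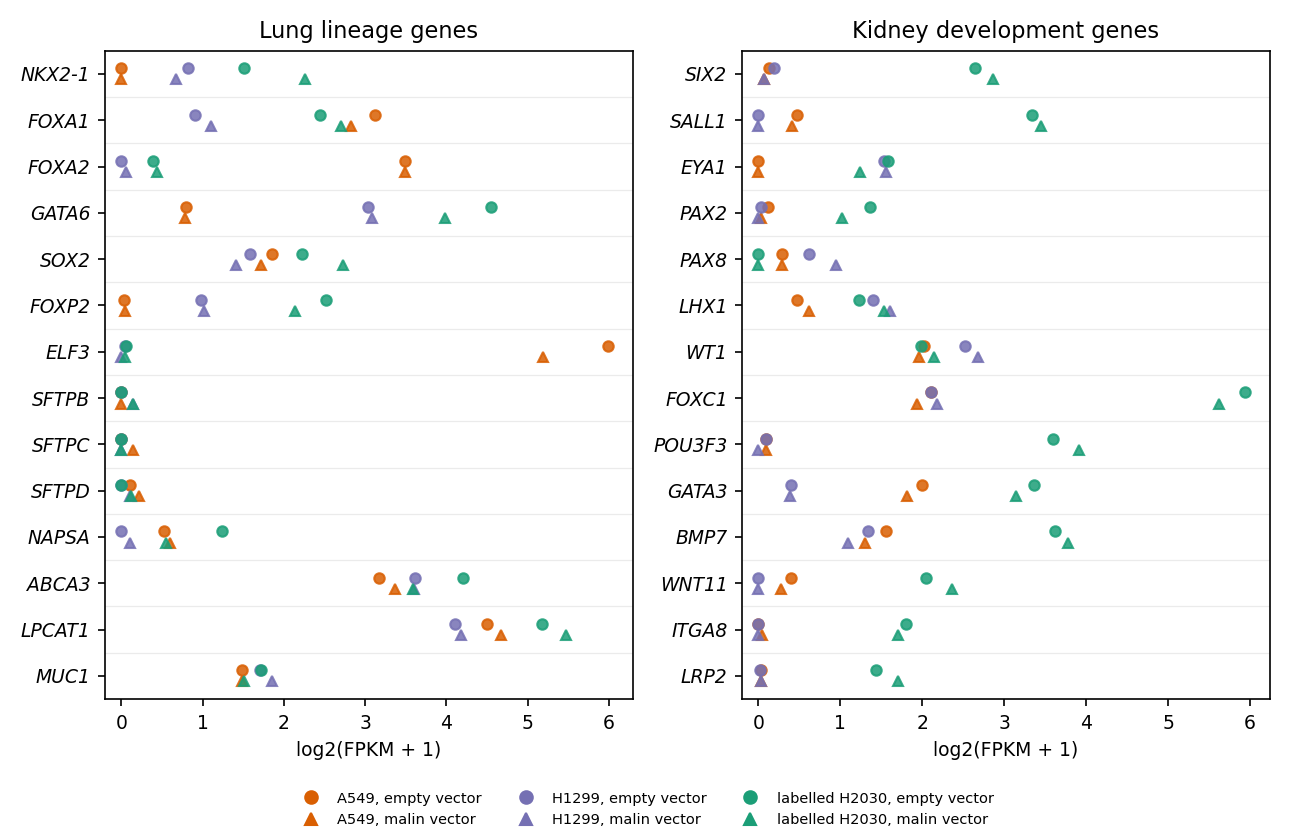
The x axes give log2(FPKM+1) and each row is a gene, with lung lineage genes on the left and kidney genes on the right; circles are empty-vector and triangles malin libraries, coloured by line label. The surfactant genes sit at the left edge in all 6 libraries, whereas SIX2, SALL1, FOXC1 and POU3F3 are high in the 2 green libraries and PAX8 is at 0 there.

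Several regulators of kidney development were higher in the pair. Of the 26 transcription factors of this list, 11 were line-specific higher (42.3%) and 1 lower (3.85%), beside 35.2% and 11.8% over all 19903 genes. SIX2, which maintains nephron progenitors, did not exceed 0.14 FPKM in A549 or H1299 and was at 5.27 and 6.28 in the pair (log2 difference 2.64, SE 0.12; limma, adjusted p = 9.35e-06). SALL1, a zinc-finger factor of the same progenitors, was at 0.39 and 0.33 FPKM in A549, listed at 0 in H1299, and at 9.11 and 9.9 in the pair (log2 difference 3.17, SE 0.10; limma, adjusted p = 4.44e-06). In both genes the 2 libraries of the pair stood above all 4 others. FOXC1, a forkhead factor of mesoderm, was at 2.82 to 3.52 FPKM against 60.53 and 48.41, and POU3F3, a POU factor of nephron and brain, at most 0.07 against 11.05 and 14.1. GATA3, a factor of the nephric duct that also acts in other tissues, was at 0.31 to 2.99 FPKM against 9.28 and 7.8.

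PAX2, a regulator of the nephric lineage, was also above all 4 lung libraries, at 1.57 and 1.02 FPKM in the pair and at most 0.08 elsewhere, but under the mean level needed for the test. Other defining kidney genes were not higher than both lines. PAX8, a relative of PAX2, was listed at 0 in both libraries of the pair and was at 0.22 to 0.93 FPKM in the lung lines. WT1, at 2.95 and 3.43 FPKM in the pair and 2.9 to 5.42 elsewhere, overlapped between the groups (limma log2 difference -0.23). LHX1, at 1.35 and 1.89 FPKM in the pair, also overlapped, since H1299 stood at 1.63 and 2.04. EYA1 was at 2 and 1.36 FPKM in the pair, 1.89 and 1.95 in H1299 and 0 in A549.

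Among signalling and adhesion genes of the kidney, 13 of 18 were line-specific higher (72.2%) and 1 lower (5.56%), beside 35.2% and 11.8% over all 19903 genes. BMP7, a survival factor of nephron progenitors, was at 1.14 to 1.94 FPKM in the lung lines and 11.29 and 12.69 in the pair (log2 difference 2.37, SE 0.13; limma, adjusted p = 2.22e-05). WNT11, a ureteric tip signal, was at most 0.32 FPKM against 3.12 and 4.16. ITGA8, the integrin chain of the cap mesenchyme, was at most 0.03 FPKM against 2.47 and 2.25. CITED1, a marker of the earliest nephron progenitors, was at 0.24 to 2.41 FPKM against 6.91 and 7.96. The groups did not overlap for these 4. CRIM1, a BMP-binding membrane protein, went the other way, at 38.16 to 76.6 FPKM in the lung lines and 10.81 and 9.52 in the pair.

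Of all 44 kidney development genes, 24 were line-specific higher, 13 of them with a wide gap, and 2 were lower, CRIM1 and PAX8. That is 54.5% higher and 4.55% lower, beside 35.2% and 11.8% over all 19903 genes. In the fit of 25 of them limma called 17 higher and 5 lower, beside 45.6% and 24.3% of all fitted genes. Their median log2 difference was 1.16 beside the all-gene 0.24. Among the 5 lower were CRIM1, OSR1, FOXD1 and GREM1, and of the 5 only CRIM1 was below both lines. FOXD1 lost its call when any A549 or H1299 library or the malin library of the pair was left out. After quantile normalization the calls were 14 and 6. Genes of the mature nephron were mostly near 0, and 19 of 26 stayed under 1 FPKM in every library. Of these 26, 5 were line-specific higher (19.2%) and 2 lower (7.69%), beside 35.2% and 11.8% over all 19903 genes. The lower ones were SYNPO, at 2.21 to 22.94 FPKM against 1.88 and 1.05, and SCNN1A, at 0.86 to 1.63 against 0.12 and 0.03. Among the higher, LRP2, the proximal tubule receptor megalin, was at 1.71 and 2.25 FPKM in the pair and at most 0.02 elsewhere. SLC12A1 (the loop of Henle cotransporter) and UMOD (uromodulin) did not exceed 0.05 FPKM in any library.

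The HOX clusters, which encode body-axis transcription factors, separated the pair most completely in HOXD. All 9 HOXD genes were line-specific higher in the pair, beside 35.2% over all 19903 genes, although HOXD12 stayed at 0.34 and 0.28 FPKM. HOXD11, which acts with HOXA11 in kidney and limb, was at 0.36 and 0.85 FPKM in A549, 0.14 and 0 in H1299, and 19.63 and 17.74 in the pair (log2 difference 3.92, SE 0.16; limma, adjusted p = 7.3e-06). HOXD10 was at 0.97 and 0.9 FPKM in A549, 0.06 in both H1299 libraries, and 30.16 and 16.59 in the pair. HOXD13, the last gene of the cluster, was at 0.04 to 2.19 FPKM against 20.3 and 31.8. The pair was above all 4 lung libraries throughout this cluster. HOXA10 was also higher, at 1.65 to 2.33 FPKM against 18.18 and 19.02, and HOXA11 at 0.15 to 0.52 against 6.72 and 8.18.

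The other clusters were mixed. Line-specific higher were 7 of 11 HOXA (63.6%), 3 of 10 HOXB (30.0%) and 4 of 9 HOXC genes (44.4%), beside 35.2% over all 19903 genes. HOXB9, at 62.49 and 41.35 FPKM against 4.87 to 13.12, was the most abundant HOX gene of the pair. HOXB7 was the only line-specific lower HOX gene, at 7.67 and 9.78 FPKM against 11.41 to 37.03. In the fit of 33 HOX genes limma called 26 higher and 4 lower, beside 45.6% and 24.3% of all fitted genes. Their median log2 difference was 0.94 beside the all-gene 0.24. After quantile normalization the calls were 17 and 5. Of the 6 HOXD genes in the fit, all were called higher, with a median of 3.06 against 0.24.

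**Figure D3:**
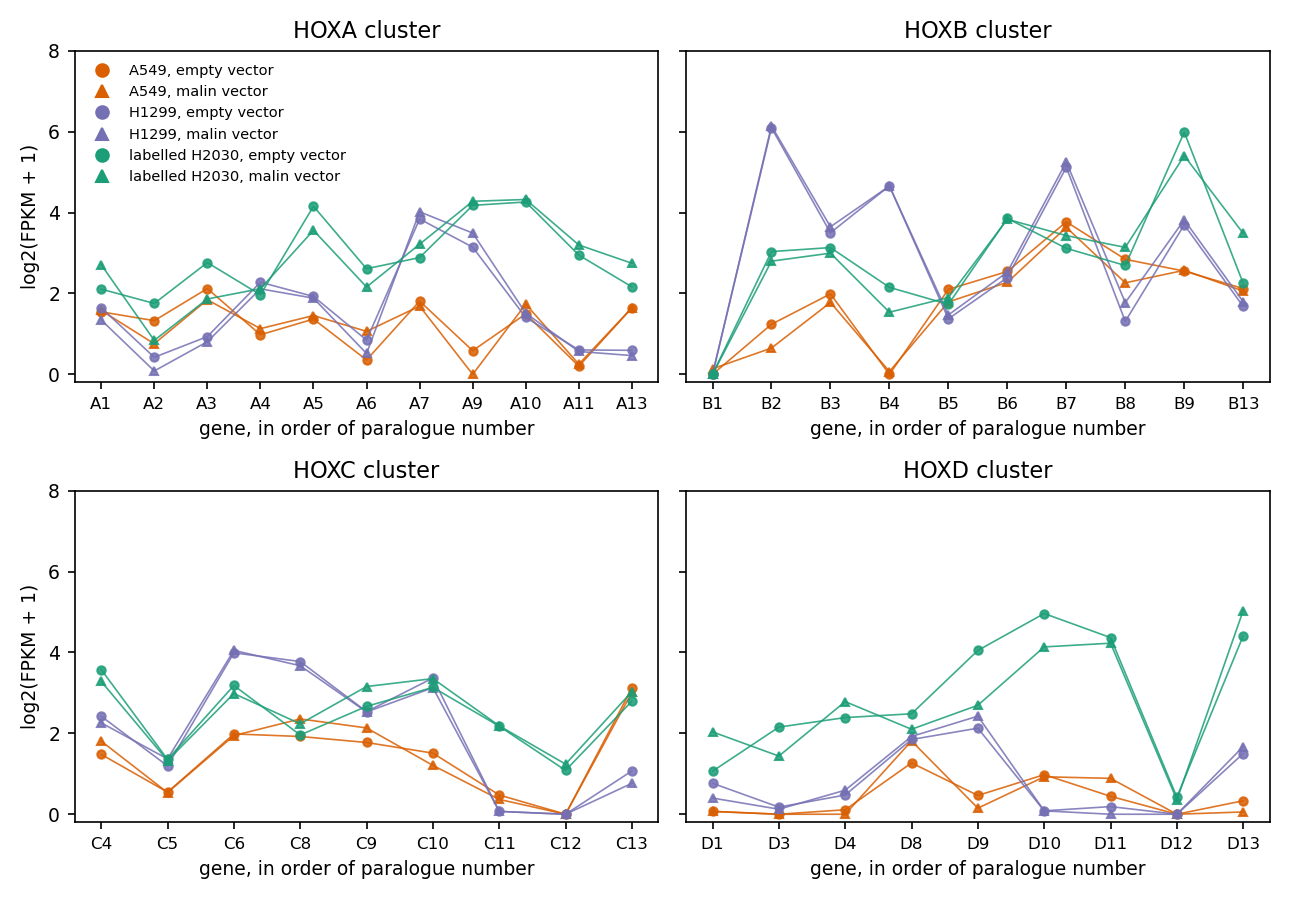
Panels give the 4 HOX clusters, with genes in order of paralogue number on the x axis and log2(FPKM+1) on the y axis; lines join the genes of 1 library. The green lines of the pair lie above all others across HOXD, while in HOXB the H1299 lines are above the pair at B2, B3, B4 and B7.

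Genes typical of cultured carcinoma cells were lower in the pair almost throughout. Of 57 genes for surface receptors, integrins, caveolae, annexins, S100 proteins and secreted factors, 38 were line-specific lower (66.7%) and 2 higher (3.51%), ERBB2 and F3, beside 11.8% lower and 35.2% higher over all 19903 genes. In the fit of 55, limma called 50 lower and 1 higher, ERBB2, beside 24.3% lower and 45.6% higher of all fitted genes. The 55 genes had a median log2 difference of -2.38 beside 0.24 over all genes. After quantile normalization the calls were again 50 and 1. Part of this contrast came from A549 alone. S100A6, a calcium-binding protein, was at 1512 and 1553.18 FPKM in A549, 0.48 and 0.52 in H1299, and 0.41 and 0.35 in the pair. S100A4 was at 1125.67 and 1106.76 FPKM in A549, and the pair, at 4.28 and 3.54, stood above H1299 at 1.34 and 2.17.

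Surface and adhesion genes were lower than both lines. AXL, a receptor tyrosine kinase, was at 63.7 and 95.42 FPKM in A549, 305.91 and 285.63 in H1299, and 1.06 and 0.64 in the pair (log2 difference -6.38, SE 0.18; limma, adjusted p = 3.35e-06). EGFR, the epidermal growth factor receptor, was at 8.1 to 35.98 FPKM against 3.92 and 3.89, and MET, the hepatocyte growth factor receptor, at 23.94 to 71.12 against 11.96 and 12.89. Of 14 surface genes 12 were line-specific lower (85.7%), and of 8 integrin genes 7 (87.5%), beside 11.8% over all 19903 genes. ITGA3, the laminin-binding chain, was at 120.77 and 145.16 FPKM in A549, 123.53 and 131.42 in H1299, and 3.56 and 3.27 in the pair. ITGB1, the shared beta chain, was at 239.24 to 779.49 FPKM against 94.79 and 81.23, and ITGAV overlapped with H1299 at 15.96 and 14.6. The caveola genes CAV1 and PTRF were at 102.12 to 218.91 and 94.26 to 210.96 FPKM in the lung lines. In the pair CAV1 was at 4.36 and 3.94 FPKM and PTRF at 8.52 and 9.93.

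Secreted and calcium-binding proteins included some of the deepest differences. LGALS1, the lectin galectin-1, was at 416.17 and 526.6 FPKM in A549, 864.86 and 872.39 in H1299, and 8.52 and 7.86 in the pair (log2 difference -6.12, SE 0.10; limma, adjusted p = 1.35e-06). TGFBI, a matrix protein induced by TGF-beta, was at 41.95 to 472.13 FPKM against 2.07 and 0.11. The urokinase gene PLAU was at 79.51 to 264.81 FPKM against 2.07 and 1.48, and its receptor PLAUR at 14.67 to 172.89 against 3.01 and 3.09. ANXA1, a phospholipid-binding annexin, was at 423.54 to 819.12 FPKM against 60.91 and 16.16, lower with malin than with the empty vector. S100A13 was a counterexample, at 60.77 to 87.51 FPKM against 70.08 and 81.93.

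**Figure D4:**
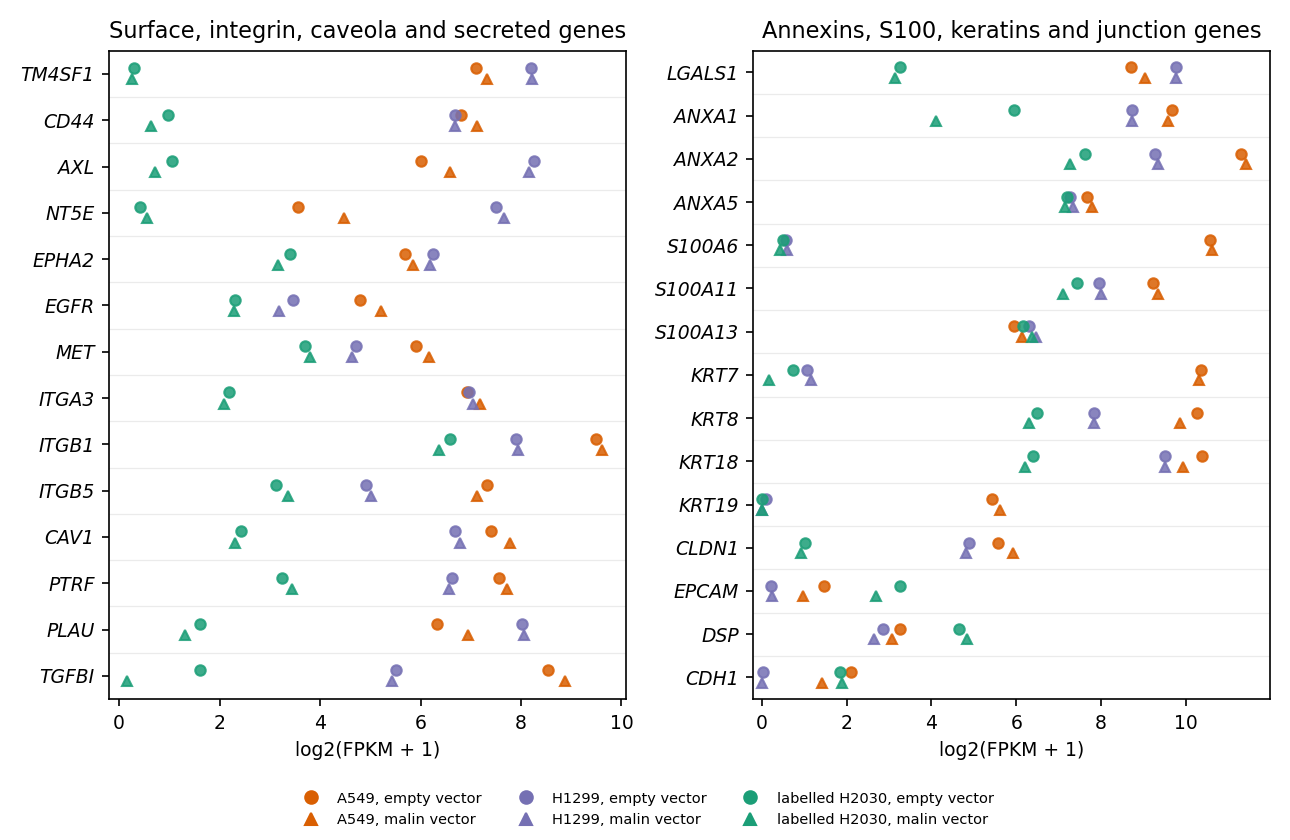
The x axes give log2(FPKM+1) and each row is a gene; circles are empty-vector and triangles malin libraries, coloured by line label. The 2 green libraries lie left of all others for TM4SF1, CD44, AXL, ITGA3, CAV1, LGALS1 and KRT18, and right of all others for EPCAM and DSP.

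Epithelial genes split by kind. Of 9 keratin genes, 6 were in the fit and all 6 were called lower by limma, beside 24.3% of all fitted genes. Their median log2 difference was -3.99 beside the all-gene 0.24. KRT18, a keratin of simple epithelia, was at 1334.29 and 973.62 FPKM in A549, 726.15 and 724.81 in H1299, and 83.22 and 72.94 in the pair (log2 difference -3.53, SE 0.13; limma, adjusted p = 6.54e-06). Its partner KRT8 was at 225.16 to 1233.79 FPKM against 88.15 and 77.56. KRT7 was at 1301.6 and 1269.11 FPKM in A549, 1.09 and 1.24 in H1299, and 0.66 and 0.12 in the pair, and KRT19 and KRT81 were also high only in A549. KRT8 and KRT18 were still the most abundant of the listed keratins in the pair.

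Adhesion genes of epithelia moved both ways. EPCAM, the epithelial adhesion molecule, was at 1.75 and 0.95 FPKM in A549, 0.17 and 0.19 in H1299, and 8.55 and 5.41 in the pair (log2 difference 2.24, SE 0.21; limma, adjusted p = 0.000158). DSP, the desmosomal plakin, was at 5.28 to 8.6 FPKM against 24.16 and 27.69, and DSG2, a desmosomal cadherin, at 15.24 to 28.88 against 76.21 and 63.41. For all 3 the pair lay above both lines. CLDN1, a tight-junction claudin, was lower, at 27.27 to 59.78 FPKM against 1.02 and 0.89. CDH1 (E-cadherin) was at 2.56 and 2.71 FPKM in the pair, within the range of A549 at 3.27 and 1.67, and at most 0.02 in H1299. Over 38 epithelial genes, 13 were line-specific higher (34.2%) and 11 lower (28.9%), beside 35.2% and 11.8% over all 19903 genes.

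Mesenchymal genes did not move as a group. VIM, the intermediate filament of mesenchymal cells, was abundant everywhere but lowest in the pair, at 416.41 and 351.63 FPKM against 614 to 1905.39. CDH2 (N-cadherin) was higher, at 49.57 and 34.91 FPKM against 9.99 to 18.37, and the matrix protein gene SPARC stood at 64.12 and 47.23 against 0.22 to 4.99. These 3 genes did not overlap between the groups. Of 27 mesenchymal genes in the tables, 10 were line-specific higher (37.0%) and 1 lower, VIM, beside 35.2% and 11.8% over all 19903 genes. In the fit of 20, limma called 8 higher and 4 lower, beside 45.6% and 24.3% of all fitted genes. Their median was 0.30, close to the 0.24 of all genes. After median-of-ratios scaling or quantile normalization the calls were 5 and 5.

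Of 46 neuronal genes, 23 were line-specific higher (50%) and 7 lower (15.2%), beside 35.2% and 11.8% over all 19903 genes. NEFM, which encodes a neurofilament subunit, stood at 0.12 and 0.18 FPKM in A549, 2.11 and 2.04 in H1299, and 30.53 and 52.62 in the pair (log2 difference 4.45, SE 0.21; limma, adjusted p = 1.24e-05). Its partner NEFL was at 1.75 to 4.61 FPKM against 23.43 and 31.69. NCAM1, the neural adhesion molecule, which is also expressed in nephron progenitors, was at most 0.02 FPKM against 9.51 and 6.21. The pair was above every lung library for all 3. Other neuronal genes were lower. The filament gene INA was at 22.91 to 43.68 FPKM in the lung lines and at 9.3 and 6.12 in the pair, and limma also called NEFH, the heavy neurofilament subunit, lower, at 0.44 and 0.26 FPKM against 7.2 and 8.77 in H1299 but 0.16 and 0.08 in A549 (log2 difference -1.23). VGF, a secreted neuropeptide precursor, was at 1.45 to 70.04 FPKM against 0.83 and 0.41. TUBB3, the neuronal beta tubulin that many carcinoma lines express, was lower, at 137.7 to 201.18 FPKM against 10.29 and 7.24. In the fit of 29, limma called 18 higher and 9 lower, beside 45.6% and 24.3% of all fitted genes. Their median was 1.24 beside the all-gene 0.24. DBH and DDC, enzymes of catecholamine synthesis, did not exceed 0.15 FPKM anywhere, and PNMT was at 2.94 and 1.5 FPKM in the pair and at most 0.59 elsewhere.

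Embryonic growth genes included GPC3, a glypican of fetal tissue, at most 0.09 FPKM in the lung lines and 11.24 and 20.67 in the pair (log2 difference 3.96, SE 0.22; limma, adjusted p = 2.26e-05). MDK, the heparin-binding growth factor midkine, was at 6.57 to 55.69 FPKM against 225.14 and 133.61. LIN28B, which blocks let-7 maturation, was shared with H1299, at 26.73 and 35.72 FPKM in the pair, 32.14 and 30.17 in H1299 and 2.81 in both A549 libraries. HMGA2, an architectural chromatin protein, was below both lines, at 24.06 and 21.07 FPKM against 31.02 to 320.2. Of 26 such genes, 11 were line-specific higher (42.3%) and 4 lower (15.4%), not far from the 35.2% and 11.8% over all 19903 genes.

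Tumour suppressor and cell-cycle genes separated all 3 lines. SMARCA4, the SWI/SNF ATPase that carries inactivating mutations in A549 and H1299, was at 2.61 and 3.39 FPKM in A549, 4.27 and 4.03 in H1299, and 45.92 and 63.56 in the pair (log2 difference 3.60, SE 0.16; limma, adjusted p = 9.28e-06). CDKN2A, the gene of p16INK4a that is deleted in A549, was at 0.09 and 0 FPKM there, 58.87 and 67.9 in H1299, and 63.16 and 78.77 in the pair. The pair overlapped with H1299 and not with A549. STK11, a kinase inactivated in A549, was at 21.28 and 21.34 FPKM in the pair against 13.68 to 19.16.

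The D-type cyclins differed in opposite directions. CCND1 was at 99.39 and 102.66 FPKM in A549, 68.66 and 67.77 in H1299, and 10.83 and 11.77 in the pair (log2 difference -2.77, SE 0.07; limma, adjusted p = 2.59e-06). CCND2 was listed at 0 in A549, at 0.19 and 0.18 FPKM in H1299, and at 16.29 and 13.63 in the pair (log2 difference 3.87, SE 0.11; limma, adjusted p = 3.58e-06). CDKN1A, the cyclin-dependent kinase inhibitor p21, was at 57.87 and 65.12 FPKM in A549, 32 and 32.38 in H1299, and 19.29 and 8.93 in the pair, below both lines. The death receptor gene FAS was at 5.32 to 9.35 FPKM against 1.49 and 1.62. RRM2B and ZMAT3 were also line-specific lower, and MDM2, MDM4 and SESN1 line-specific higher.

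Class I antigen presentation showed high chains and low processing subunits. HLA-C was at 33.18 to 69.61 FPKM in the lung lines and 200.7 and 181.59 in the pair (log2 difference 1.93, SE 0.09; limma, adjusted p = 9.84e-06), and HLA-F at 0.96 to 2.24 against 15.3 and 16.43. These genes are close copies, and fragments may be shared among them. PSMB8, an immunoproteasome subunit, was at 11.96 to 24.6 FPKM against 0.47 and 0.2, and PSMB9 at 4.49 to 11.93 against 1.52 and 2.04. None of these 4 genes overlapped between the groups. Of the 24 genes, 6 were line-specific higher (25.0%) and 10 lower (41.7%), beside 35.2% and 11.8% over all 19903 genes.

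Markers of cells that the cultures should not hold were low. Summed over each list, endothelial genes came to 0.1 to 1.1 FPKM and hepatocyte genes to 0.3 to 3.7 FPKM across the 6 libraries. The erythroid sum was 0 to 0.3 FPKM in the lung lines and 5.1 and 2.6 in the pair, mostly HBA1. The immune sum was 16 to 55.6 FPKM in the lung lines, mostly CD68, and 7.9 in both libraries of the pair. In bulk RNA fewer cells of a kind and less RNA per cell cannot be told apart.

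The genes higher in the pair were unevenly spread over the chromosomes. Over all 12184 coding genes of the fit, 37.5% were line-specific higher and 16.7% lower, with a median log2 difference of 0.24. On chromosome 22, 211 of 301 genes were line-specific higher (70.1%), with a median log2 difference of 0.82, and on chromosome 13 137 of 204 (67.2%), with a median of 0.67 and 8 genes lower. The lowest share was 22.6%, on chromosome 12. Chromosomes 22 and 13 were high against each line separately, at 0.85 and 0.78 against A549 and H1299 for chromosome 22 and 0.67 and 0.70 for chromosome 13. Chromosome 6 was high against A549 (0.85) but not against H1299 (0.03). Within chromosome 4, the stretch from 140 to 200 Mb, chosen after its values were seen, held 102 genes, 86 of them higher and 5 lower. Genomic copy number was not measured, and its part in these differences was not tested.

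**Figure D5:**
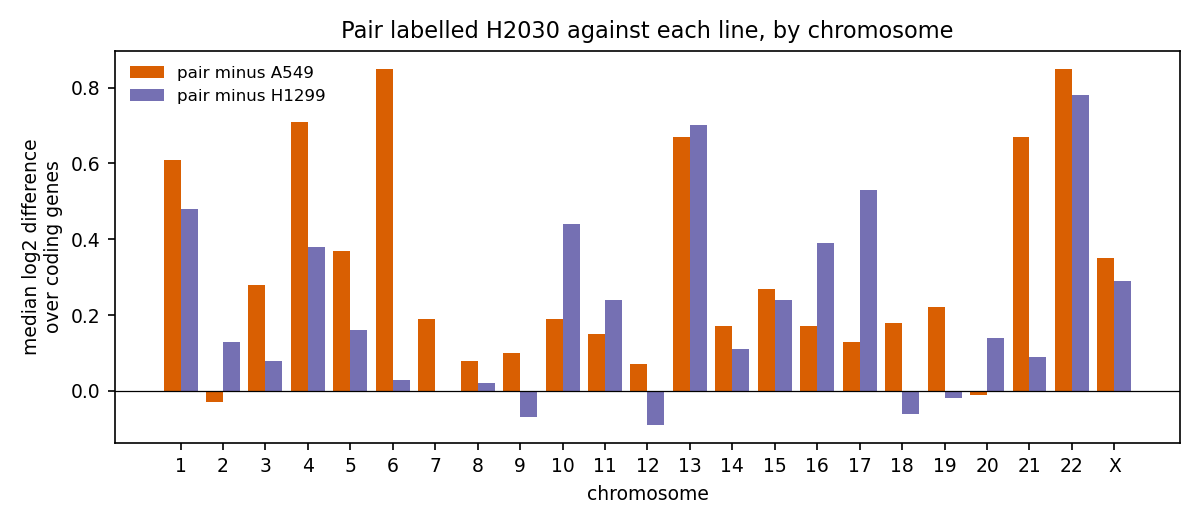
Bars give, for each chromosome, the median log2 difference over its coding genes between the pair labelled H2030 and A549 (orange) or H1299 (violet). Chromosomes 13 and 22 stand out against both lines, chromosome 6 only against A549.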

How the data were processed

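The authors deposited 1 gene table per library, in FPKM per the file headers. Tools listed in the submitters' processing notes are STAR, Cufflinks, cutadapt and FastQC, on hg38. Their versions, and whether strand was used, are not given in the sources used here. Because FPKM is relative to the library total, very abundant genes can move the values of all others. Tables were joined by gene identifier (19903 genes). Of these, 19770 matched the RefSeq table of GRCh38.p14, which gave gene class and promoter sequence, and 17541 were protein coding. No counts were used here, and the spacing of low values gave an estimate of depth.

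Groups followed the cell-line label and ignored the vector. No label says whether cultures were independent, so p-values measure only the spread between these libraries. Log2(FPKM+1) of 12184 coding genes with a mean of at least 1 FPKM entered a limma 3.58.1 model under R 4.3.3 (1 mean per line, eBayes with trend, two-sided, Benjamini-Hochberg at 0.05), and the contrast was the pair against the average of both lines. The script was tested on simulated data. Line-specific counts and list counts carry no test of their own. A549 and H1299 served as controls in every comparison. The comparison, gene lists and rules were chosen with earlier results of these data known. Named were the 15 widest gaps per direction, up to 4 members per list and role by absolute difference, a fixed set of defining genes, and genes just inside and outside the rule. Other names, such as DSG2, EGFR, ERBB2, F3, MET, ITGAV, ITGB1, S100A13, FOXD1, GREM1 and HOXD12, were chosen after their values were seen, to complete a count or give an exception. Values of a few genes chosen by this rule were left out. The listed genes SFTPA1, SFTPA2, SCGB1A1, GSTM1 and GSTT1 were not analysed here. The 17 alternatives were pseudocounts of 0.1 and 5, other filters, 2 other scalings, a vector term, no trend, all gene classes, and leaving out a line or a library. Tables and plots were made with pandas 2.3.3, numpy 2.4.6 and matplotlib 3.10.9 under Python 3.11.15.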

Additional observations from a re-analysis of the deposited data

How the results depend on the processing

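Counts of calls moved by over 1.5 times under few of the 17 alternatives. Median-of-ratios scaling gave 3654 genes higher and 4491 lower (limma), 2856 line-specific higher and 3375 lower, and 621 and 634 with a wide gap. Wide-gap counts were 372 and 252 with a pseudocount of 5, and 459 higher with a mean of at least 5 FPKM. Without the A549 libraries, 3822 genes were line-specific lower and 1859 and 1077 had a wide gap higher and lower; without H1299 the counts were 3523, 2003 and 1078. Both settings compare the pair with fewer libraries. Leaving out 1 library at a time gave 4860 to 5993 genes higher and 2452 to 3424 lower (limma).

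Genes near the limit or shared with 1 line changed sign. After quantile normalization F3 was at -0.268, LHX1 -0.152 and RPS21 0.083, and after median-of-ratios scaling LDHB was at -0.136, RPSA -0.234 and S100A13 -0.288 (log2). Without A549, EYA1 was at -0.134, LHX1 -0.118, LIN28B -0.01, S100A13 -0.119 and S100A4 0.846. Without H1299, FOXA1 was at -0.40, FOXD1 1.64 and WT1 0.07. S100A13 ranged from -0.061 to 0.162 with 1 library left out. The cause was not tested. The labels give no replicate numbers, and with the vector as a block across the lines 5461 genes were higher and 2866 lower. The labels give 1 library per line and vector, and at these depths values under about 0.2 FPKM rest on few fragments.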

Other observations

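Further gene groups, chosen after their values were seen, also separated the pair. Of 13 genes of class II antigen presentation, 12 were line-specific higher (92.3%, beside 35.2% over all genes), with a sum of 53.2 and 52.3 FPKM in the pair and 0.6 to 1.8 FPKM in A549 and H1299. HLA-DQB1 was at 12.23 and 11.01 FPKM and HLA-DRB1 at 10.14 and 10.4 FPKM in the pair, against at most 0.08 FPKM elsewhere. CIITA, the master regulator of this class, did not exceed 0.03 FPKM anywhere, and the invariant chain CD74 was at 0.34 and 0.32 FPKM in the pair. HLA genes are close copies, and how fragments were shared among them was not tested.

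Of 19 Notch pathway genes, 14 were line-specific higher (73.7%) and 1 lower (5.26%), beside 35.2% and 11.8% over all 19903 genes. The Notch target HES5 was listed at 0 in all 4 lung libraries and at 9.52 and 15.44 FPKM in the pair, and HES4 was at 2.7 to 4.82 FPKM against 77.28 and 66.86. Of 19 NF-kB pathway genes, 11 were line-specific lower (57.9%) and 0 higher, beside 11.8% and 35.2% over all genes. RELB, a subunit of the noncanonical branch, was at 15.38 to 45.61 FPKM against 0.61 and 0.7, and BIRC3, an inhibitor of apoptosis, at 17.96 to 33.15 FPKM against 0.17 and 0.46. Summed cancer-testis genes came to 1184.2 and 1203 FPKM in H1299, 123.1 and 127.8 in A549, and 12.4 and 10.8 in the pair. Of 16 such genes, 2 were line-specific higher (12.5%) and 5 lower (31.2%), beside 35.2% and 11.8% over all 19903 genes. MAGEA4 was high only in H1299, at 492.89 and 500.23 FPKM, against 0.12 in both A549 libraries and 0.15 and 0.13 in the pair.

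Near-complete contrasts outside any list were PSMD5, a proteasome assembly chaperone, at 25.88 to 35.18 FPKM in A549 and H1299 and 0.21 and 0.03 in the pair, and TXNIP, a thioredoxin inhibitor, at most 0.03 FPKM against 22.85 and 15.16. By windows of 20 Mb, 5 of 150 had a median log2 difference above 1 against both lines and 0 below -1. The highest median, 1.64 beside 0.24 over all genes of the fit, was in the window of chromosome 13 from 60 to 80 Mb. There 19 of 22 genes were line-specific higher and 0 lower, beside 37.5% and 16.7% over all genes of the fit.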
